A study of Mus musculus with 6 samples.

Results

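The 9 genes described here act in adrenergic signalling in the pressure-overloaded mouse heart: the receptors Adrb1, Adra1a and Adra1b, the receptor kinases Grk2 and Grk5, the adenylyl cyclases Adcy5, Adcy6 and Adcy7, and Gnas, which encodes the stimulatory G protein subunit. They were taken by name from a table of 54532 genes, and all 9 had enough reads to be among the 14774 genes tested. Poly-A RNA was sequenced from the left ventricle of male mice 4 weeks after aortic banding (AB), an operation that narrows the aorta and was performed at 8 to 10 weeks of age. Every mouse analysed here had AB, so no value describes the unloaded heart. The 3 TG mice, labelled HINT2CTG-Myh6Cre, carried a CAG-driven transgene of HINT2, a mitochondrial histidine triad nucleotide-binding protein, together with Cre under the Myh6 promoter, which is active in cardiomyocytes, and received tamoxifen at 5 mg/kg/d for 7 days. The 3 NTG mice were labelled C57BL/6J, and whether they carried Cre or received tamoxifen was not given in the sources used here. The comparison asks how the ventricular transcriptome after AB differed between hearts with and without cardiomyocyte HINT2 overexpression.

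Noradrenaline and adrenaline raise the rate and force of the heartbeat by binding beta-adrenergic receptors, which turn on adenylyl cyclase through the stimulatory G protein, and the cAMP formed activates protein kinase A (PKA). Receptor kinases phosphorylate the occupied receptor and arrestins then bind it, which ends the signal. Alpha-1 receptors act through a different G protein, Gq, and phospholipase C. In failing hearts a loss of beta-1 receptors and a gain of receptor kinase activity are well-known changes.

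The libraries held 14863568 to 17581220 counts in NTG and 14944465 to 17235802 in TG. Hint2, the targeted gene, had 12, 545 and 559 counts in NTG 1, NTG 2 and NTG 3 and 793, 828 and 859 in TG 1, TG 2 and TG 3, and whether transgene reads are counted in this row was not given in the sources used here. NTG 1 stood apart from the other NTG libraries in Hint2, where it lay further from TG than they did. On the first principal component of all genes NTG 1 departed the other way, toward TG. It lay at -5.1, against 55.7 and 29.3 for NTG 2 and NTG 3 and -10.7 to -36.5 for TG. Averaged over genes, the counts of NTG 1 differed less from those of TG 1 and TG 2 (chi-square per gene 22.1 and 18.1) than from those of NTG 2 and NTG 3 (72.5 and 33.9). Whether the label of NTG 1 is right could not be settled from the data, so every comparison of TG with NTG that includes it rests on that label. The fold change of each member is therefore also given without NTG 1, as are those of other genes where the call changed. NTG 1 was singled out partly for lying near TG on all genes, so leaving it out favours larger differences between the groups. The edgeR calls rose from 0% to 5.52% of genes without it. Calls made without NTG 1 are therefore no independent support. The Hint2 log2 fold change was 1.33 ± 0.86 (SE, adjusted p = 0.433, edgeR quasi-likelihood test) with all libraries and 0.77 (adjusted p = 0.0212) without NTG 1. All 12 cardiomyocyte markers were expressed in this ventricular preparation. Summed atrial markers were 821, 1397 and 1403 CPM (counts scaled to a common library size) in NTG 1, NTG 2 and NTG 3. They were 177, 896 and 435 CPM in TG 1, TG 2 and TG 3. Myl7 and Bmp10 were at 0 in at least 1 library. Of the 4 atrial genes tested, 3 were fitted higher and 1 lower in TG. The list includes Nppa, also a hypertrophy marker, so the sum does not measure atrial tissue alone.

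Marker genes of several cell types moved with the groups. Summed cardiomyocyte markers were 29651 to 47138 CPM in NTG and 45350 to 55005 in TG, and all 12 were fitted higher in TG, 3 of them at an unadjusted p under 0.05. Summed fibroblast markers were 7169 to 12446 CPM in NTG and 4752 to 6831 in TG, with 10 of 11 fitted lower and 7 at an unadjusted p under 0.05. Macrophage and monocyte markers summed to 1065 to 1962 CPM in NTG and 779 to 1156 in TG, and all 12 were fitted lower, 4 at an unadjusted p under 0.05. Erythroid markers, from blood in the tissue, summed to 1310 to 2245 CPM in NTG and 762 to 908 in TG, and all 5 were fitted lower with an unadjusted p under 0.05. Endothelial sums were 3779 to 4363 CPM in NTG and 3811 to 4157 in TG, and those of smooth muscle and pericytes were 4028 to 5545 and 3458 to 4173. Neuron and Schwann markers summed to 8.041 to 8.656 CPM in NTG and 11.76 to 12.72 in TG, with Th at 0 in at least 1 library. Lymphocyte sums stayed at or under 11.48 CPM and adipocyte sums at or under 7.469, with Lep at 0 in all libraries. In whole tissue, fewer cells of a type and less RNA per cell cannot be told apart. The part of these markers in any result below was not tested.

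Sequence before the start site was available from RefSeq (GRCm38.p6) for 6 of the 9 members, with 12 windows of 250 bases in all. The windows of Adrb1, the receptor that names the pathway, of Adra1b, which had the largest fold change of the 9, and of Grk5 and Adcy7, which shared one order of the libraries, are shown 5′ to 3′ on the gene's strand. Capitals mark TGACG or its complement CGTCA, the core of the cAMP response element to which CREB binds downstream of PKA.
Adrb1, chr19:56721867-56722116, plus strand: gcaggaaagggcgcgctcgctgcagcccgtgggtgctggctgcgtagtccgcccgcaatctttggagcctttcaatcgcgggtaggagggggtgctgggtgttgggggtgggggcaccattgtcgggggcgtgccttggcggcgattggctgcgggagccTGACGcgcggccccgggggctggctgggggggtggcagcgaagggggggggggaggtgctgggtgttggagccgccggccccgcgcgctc
Adra1b, chr11:43901238-43901487, minus strand: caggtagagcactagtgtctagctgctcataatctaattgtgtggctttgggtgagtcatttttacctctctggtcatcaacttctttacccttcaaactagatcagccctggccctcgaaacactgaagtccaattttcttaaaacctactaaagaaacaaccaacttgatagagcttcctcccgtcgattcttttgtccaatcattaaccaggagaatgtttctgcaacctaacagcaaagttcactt
Grk5, chr19:60889499-60889748, plus strand: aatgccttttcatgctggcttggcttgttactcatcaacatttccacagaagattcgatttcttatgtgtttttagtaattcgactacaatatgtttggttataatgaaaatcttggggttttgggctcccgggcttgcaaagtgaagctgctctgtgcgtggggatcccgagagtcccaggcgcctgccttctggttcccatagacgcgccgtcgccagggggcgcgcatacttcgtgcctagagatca
Adcy7, chr8:88282742-88282991, plus strand, at a start site inside the gene: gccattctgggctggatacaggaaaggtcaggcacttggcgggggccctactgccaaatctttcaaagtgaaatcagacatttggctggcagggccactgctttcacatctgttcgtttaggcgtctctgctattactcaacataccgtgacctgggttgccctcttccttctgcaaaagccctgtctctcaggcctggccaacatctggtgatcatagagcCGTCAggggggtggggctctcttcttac
The core was present once in the windows of Adrb1 and Adcy7 and was not found in those of Adra1b and Grk5, and 17.8% of all 32851 windows held it on either strand. The complete palindrome TGACGTCA, which contains the core, was found in 0 of the 4 and in 1.55% of all windows. A GC box (GGGCGG or CCGCCC) was present in the Adrb1 window and in 32.7% of all windows, and TATAAA or TTTATA, held by 12.4%, was in none of the 4. The Adrb1 window contained 74% G and C, against 41.6% for Adra1b, 49.6% for Grk5 and 54% for Adcy7. Other start sites of the same genes differed. A second Adra1b window, before chr11:43836489, had 72.8% G and C and a GC box, and the 2 further Adcy7 windows lacked the core, with a GC box in 1 of them. These matches describe letters in a window and do not show binding.

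**Figure D1:**
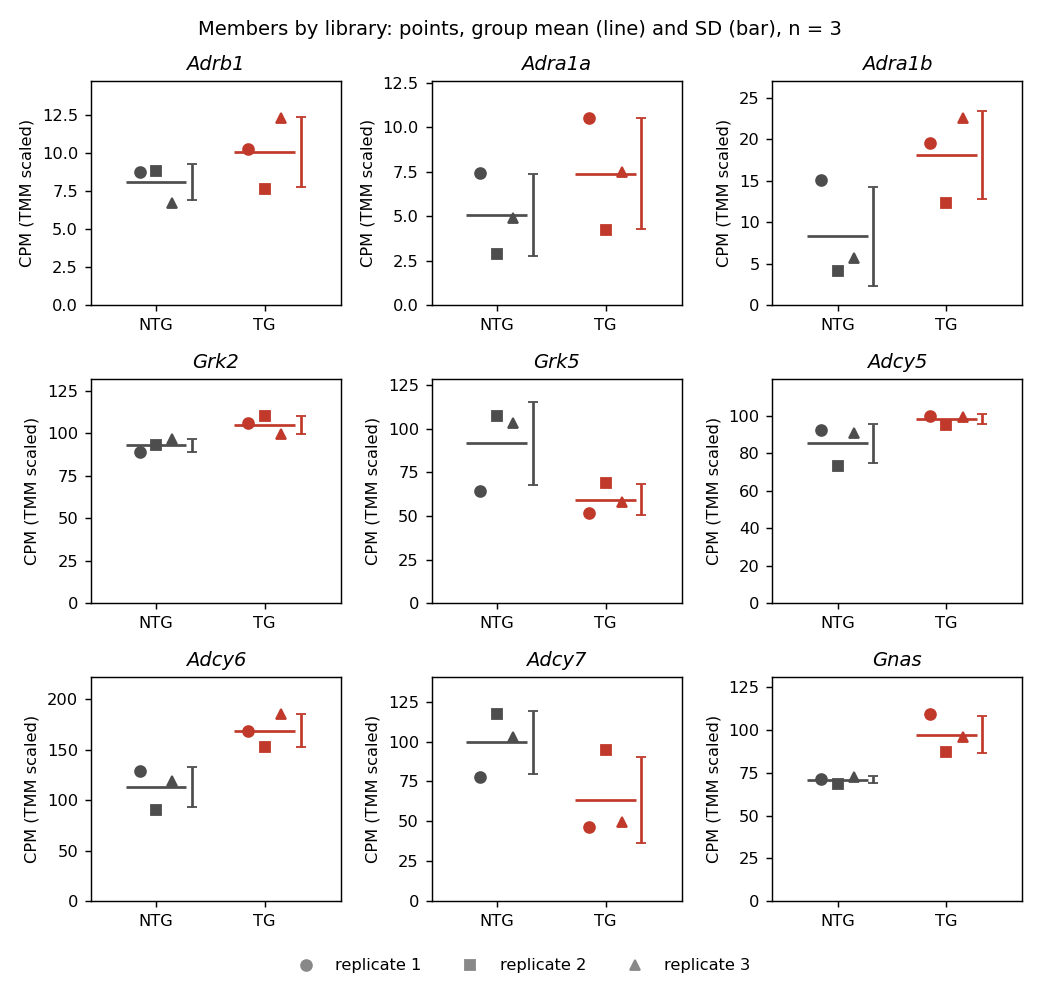
Scaled CPM (y axis, linear from 0) of the 9 members in the 3 NTG and 3 TG libraries, with symbols for the replicate number, a line for the mean and a bar for the SD. Adcy6, Gnas, Grk2 and Adcy5 had every TG point above every NTG point, and the Grk5 and Adcy7 means were lower in TG.

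With all 6 libraries, 0 of the 9 members and 0% of genes in either direction passed the edgeR quasi-likelihood test, for which a call needed an adjusted p below 0.05 together with a log2 difference larger than 0.5 either way. Over the 14774 genes no adjusted p was below 0.196. limma voom called 0 members and 0 genes as well. At an unadjusted p under 0.05 there were 3 members, with Adcy6 and Gnas higher and Grk5 lower in TG, where 18.6% of all genes passed, 8.83% higher and 9.76% lower. Of the members, 7 were fitted higher and 2 lower in TG, and 48.7% of all genes were fitted higher. The median log2 fold change was 0.31 over the members and -0.00811 over all genes tested. The groups did not overlap in 4 members, all higher in TG (Grk2, Adcy5, Adcy6 and Gnas), against 23.5% of all genes, 11.2% higher and 12.3% lower.

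DESeq2 on the same genes called 1 member higher, Adcy6, and 0 lower, while it called 3.95% of all genes (1.54% higher, 2.4% lower). At any fold its adjusted p was under 0.05 for 2 members, Adcy6 and Gnas, and for 4.22% of genes. Without NTG 1, edgeR called Adra1b and Adcy6 higher and Grk5 lower, 3 of 9 members, where 5.52% of genes were called (2.67% higher, 2.85% lower). DESeq2 without NTG 1 called the same 3 members, at a background of 11.7% (5.92% higher, 5.79% lower). NTG 1 lay on the TG side of both other NTG libraries in 6 of the 9 members. The share over all genes was not computed, and on the first principal component of all genes NTG 1 also lay toward TG. The count is therefore not read as a trait of the members.

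**Figure D2:**
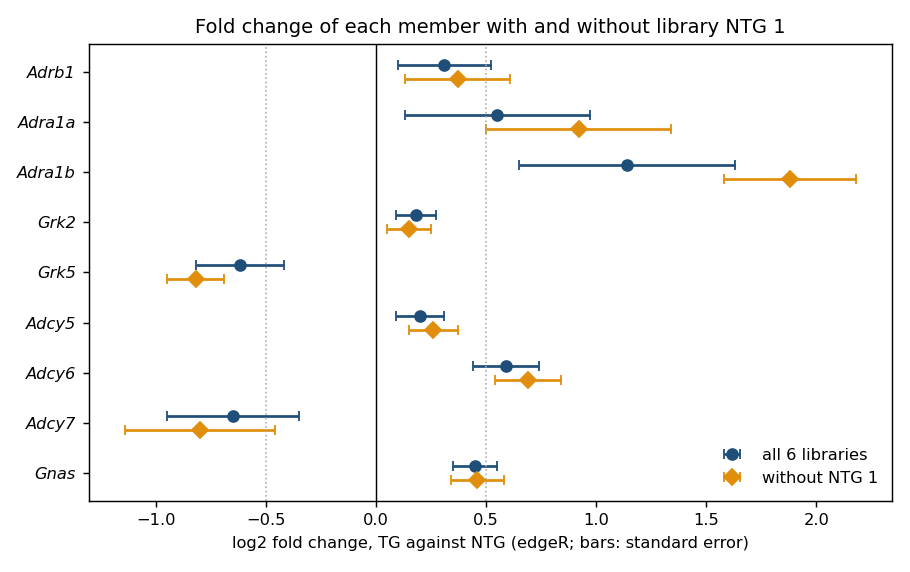
Log2 fold change of each member in TG against NTG (x axis, edgeR, bars are standard errors) with all 6 libraries and without NTG 1, with dotted lines at 0.5 in size. Adra1b moved from 1.14 to 1.88 and Grk5 from -0.62 to -0.82, and each member stayed on its side of 0.

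Adrb1 (ENSMUSG00000035283, chr19:56722372-56724862, plus strand) encodes the beta-1 receptor, the main beta-adrenergic receptor of ventricular cardiomyocytes. It was measured at 8.81, 8.82 and 6.77 CPM in NTG and 10.3, 7.67 and 12.3 CPM in TG. TG 1 and TG 3 were the highest libraries and TG 2 lay among the NTG libraries, so the groups overlapped. The mean was 8.13 ± 1.18 CPM (SD, n = 3) in NTG and 10.1 ± 2.31 in TG, a log2 fold change of 0.31 ± 0.21 (SE, edgeR adjusted p = 0.438). Without NTG 1 it was 0.37 ± 0.24 (adjusted p = 0.361), and it was 0.48 without TG 2, 0.19 without NTG 3 and 0.14 without TG 3. The gene rested on only 117 to 199 counts in a library. Its paralog Adrb3 had 2 counts in TG 3 and 0 in the other libraries.

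The alpha-1 receptors showed the widest spread between libraries. Adra1b (ENSMUSG00000050541, chr11:43774606-43901210, minus strand) was at 15.1, 4.09 and 5.73 CPM in NTG and 19.5, 12.3 and 22.5 CPM in TG. NTG 1 was above TG 2, and the other NTG libraries were below every TG library. The means were 8.3 ± 5.93 and 18.1 ± 5.26 CPM, with a log2 fold change of 1.14 ± 0.49 (edgeR adjusted p = 0.278). Without NTG 1 Adra1b was called higher, with a log2 fold change of 1.88 ± 0.30 (adjusted p = 0.0254 by edgeR and 6.62e-07 by DESeq2). NTG 1 thus decided the call. The 6 libraries ran from high to low as TG 3, TG 1, NTG 1, TG 2, NTG 3 and NTG 2, and the summed cardiomyocyte markers as TG 1, TG 3, NTG 1, TG 2, NTG 3 and NTG 2.

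Adra1a (ENSMUSG00000045875, chr14:66635251-66771168, plus strand), the other alpha-1 receptor of cardiomyocytes, was at 7.44, 2.87 and 4.92 CPM in NTG and 10.5, 4.26 and 7.47 CPM in TG. The highest library was TG 1 and the lowest NTG 2, with overlap between. The log2 fold change was 0.55 ± 0.42 (edgeR adjusted p = 0.50), and 0.92 ± 0.42 (adjusted p = 0.211) without NTG 1. It was 0.83 without TG 2, 0.25 without NTG 2 and 0.21 without TG 1. Adra1d, the third alpha-1 subtype, had 0.24 ± 0.33 (adjusted p = 0.723), and Adra2b, an alpha-2 receptor that couples to the inhibitory G protein, had 0.42 ± 0.41 (adjusted p = 0.592).

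The 2 receptor kinases went in opposite directions in the fit. Grk5 (ENSMUSG00000003228, chr19:60889749-61092553, plus strand) encodes a membrane-associated kinase that can also enter the nucleus of cardiomyocytes. Its values were 64.5, 107 and 103 CPM in NTG and 51.5, 68.7 and 58 CPM in TG. NTG 2 and NTG 3 were highest, and NTG 1 lay between TG 2 and TG 3. The mean was 91.5 ± 23.5 CPM in NTG and 59.4 ± 8.67 in TG, with a log2 fold change of -0.62 ± 0.20 (unadjusted p = 0.0165, edgeR adjusted p = 0.211, DESeq2 adjusted p = 0.0756). Without NTG 1 Grk5 was called lower, at -0.82 ± 0.13 (adjusted p = 0.0208 by edgeR and 3.08e-05 by DESeq2). The Zfp950 gene lies within Grk5 on the other strand, with 0 shared exon bases and 177 to 356 counts in a library.

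Grk2 (ENSMUSG00000024858, chr19:4286001-4306222, minus strand) encodes the cytosolic kinase that is drawn to active receptors by free G protein beta-gamma subunits. It was at 89.1, 93.4 and 96.5 CPM in NTG and 106, 110 and 99.6 CPM in TG. All TG libraries were above all NTG libraries, by a small margin between NTG 3 and TG 3. The log2 fold change was 0.18 ± 0.09 (edgeR adjusted p = 0.305), and 0.15 ± 0.10 (adjusted p = 0.363) without NTG 1.

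Other receptor kinases and arrestins did not share one direction. Arrb1, which encodes beta-arrestin 1, was at 63.6, 119 and 116 CPM in NTG and 53.2, 71.9 and 60.5 CPM in TG. As in Grk5, NTG 1 lay between TG 2 and TG 3. Its log2 fold change was -0.69 ± 0.25 (edgeR adjusted p = 0.224), and it was called lower without NTG 1 (-0.93, adjusted p = 0.0177). Arrb2 was at -0.40 ± 0.29 (adjusted p = 0.479), Grk6 at -0.08 ± 0.12 (adjusted p = 0.728) and Grk3, the closest relative of Grk2, at 0.25 ± 0.14 (adjusted p = 0.353). Of the 7 kinases and arrestins tested, 2 were fitted higher and 5 lower, and 2 had an unadjusted p under 0.05, both lower. Their median log2 fold change was -0.20, and it was -0.06 without NTG 2 and -0.08 without TG 3.

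Gnas (ENSMUSG00000027523, chr2:174284320-174346744, plus strand) had the smallest NTG spread of the members relative to its level. It was at 71.5, 68.7 and 72.4 CPM in NTG and 109, 86.9 and 95.7 CPM in TG. Every TG library was above every NTG library, and NTG 1 lay with the other NTG libraries. The means were 70.9 ± 1.97 and 97.2 ± 11 CPM, and the log2 fold change was 0.45 ± 0.10 (unadjusted p = 0.00219, edgeR adjusted p = 0.196). DESeq2 gave 0.46 with an adjusted p of 0.0216, below the fold threshold, and its adjusted p was 0.15 to 0.229 without any one of NTG 2, NTG 3, TG 1 or TG 3. Without NTG 1 it was 0.46 ± 0.12 (adjusted p = 0.0598 by edgeR and 0.0203 by DESeq2). The locus has several start sites and 24 annotated transcripts, some with products other than the stimulatory subunit, and the row sums them all. The antisense gene Nespas, which shares 988 exon bases with it, had 2 counts in NTG 1 and 0 elsewhere, and Gm20721, which shares 1469, had 1 count in TG 1 and 0 elsewhere. Gnal, which encodes a related stimulatory subunit, averaged 4 ± 0.55 CPM in NTG and 3.85 ± 0.847 in TG (log2 fold change -0.06 ± 0.24, adjusted p = 0.911).

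Of the adenylyl cyclases, which make cAMP, Adcy6 (ENSMUSG00000022994, chr15:98589973-98610076, minus strand) was the member that DESeq2 called. With Adcy5 it forms the calcium-inhibited pair that predominates in cardiomyocytes. It was at 129, 90.5 and 119 CPM in NTG and 169, 153 and 185 CPM in TG. Each TG library exceeded each NTG library. The means were 113 ± 19.9 and 169 ± 16.2 CPM, with a log2 fold change of 0.59 ± 0.15 (unadjusted p = 0.00377, edgeR adjusted p = 0.196). The DESeq2 log2 fold change was 0.59 (adjusted p = 0.0216), and this call ended without NTG 2 (adjusted p = 0.0831), NTG 3 (0.119), TG 1 (0.189) or TG 3 (0.244). Without NTG 1 both tools called it higher, at 0.69 ± 0.15 by edgeR (adjusted p = 0.038, DESeq2 0.00138). The antisense gene Gm29331, with 605 shared exon bases, had 0 counts in all libraries.

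Adcy5 (ENSMUSG00000022840, chr16:35154877-35305738, plus strand) was at 92.2, 73.3 and 90.7 CPM in NTG and 99.7, 95.2 and 99.5 CPM in TG. The groups did not overlap, although NTG 1 and NTG 3 lay within a few CPM of TG 2. The log2 fold change was 0.20 ± 0.11 (edgeR adjusted p = 0.344), and 0.26 ± 0.11 (adjusted p = 0.192) without NTG 1. Without NTG 2, the lowest library, it was 0.10 (adjusted p = 0.702).

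Adcy7 (ENSMUSG00000031659, chr8:88272403-88329962, plus strand) encodes a cyclase that beta-gamma subunits can stimulate and that is known from immune cells. It was at 78.1, 117 and 103 CPM in NTG and 46.7, 94.4 and 49.4 CPM in TG. TG 2 lay above NTG 1, so the groups overlapped. The means were 99.5 ± 19.9 and 63.5 ± 26.8 CPM, with a log2 fold change of -0.65 ± 0.30 (edgeR adjusted p = 0.294), and -0.80 ± 0.34 (adjusted p = 0.211, DESeq2 0.0567) without NTG 1. Without TG 2 DESeq2 called Adcy7 lower at -1.04 (adjusted p = 0.000123), and edgeR did not call it at -1.05 (adjusted p = 0.122). Adcy7 and Grk5 shared the order NTG 2, NTG 3, TG 2, NTG 1, TG 3 and TG 1 from high to low, and the summed fibroblast markers ran NTG 2, NTG 3, NTG 1, TG 2, TG 3 and TG 1.

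Other cyclases varied as widely. Adcy9, which is expressed in many tissues, was at 18.7, 15.5 and 17.4 CPM in NTG and 22.7, 21.6 and 25.1 CPM in TG, with no overlap and a log2 fold change of 0.43 ± 0.12 (edgeR adjusted p = 0.196, DESeq2 0.0875). Adcy2 was low, at 20 to 29 counts in NTG and 4 to 15 in TG, with a log2 fold change of -1.26 ± 0.46 (adjusted p = 0.221). Adcy3 was at -0.41 ± 0.19 (adjusted p = 0.293) and Adcy4 at 0.09 ± 0.08 (adjusted p = 0.595). Of 8 cyclases tested, 5 were fitted higher and 3 lower, with a median log2 fold change of 0.14.

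**Figure D3:**
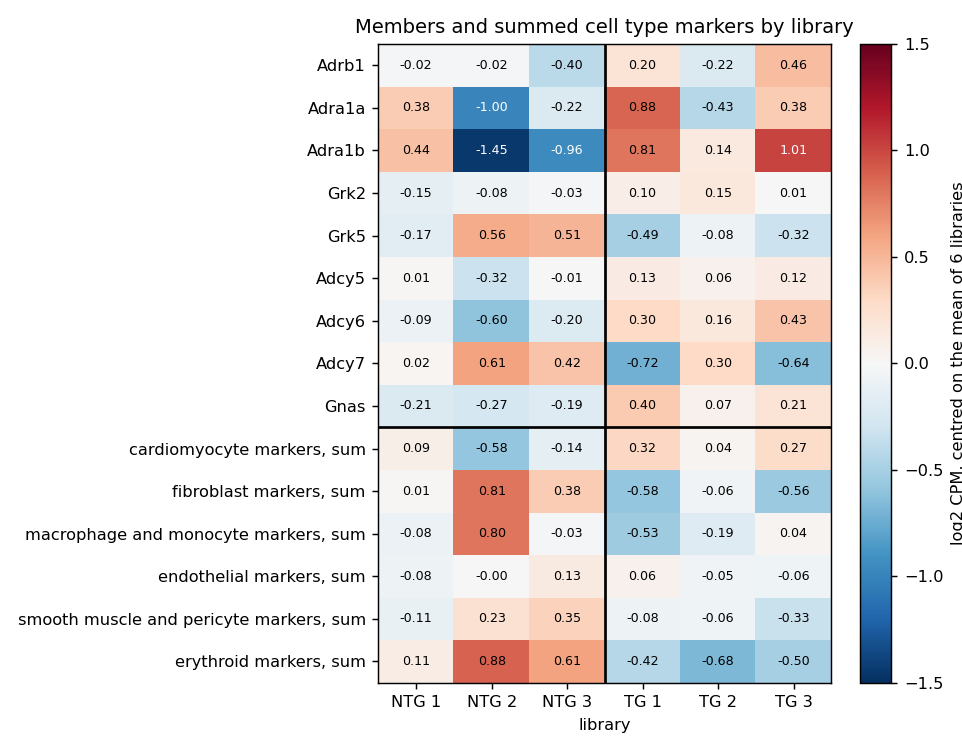
Log2 CPM of the 9 members and of summed marker lists for 6 cell types in each library, centred on the mean of the 6 libraries (red above, blue below, values printed). NTG 2 had the lowest Adra1b (-1.45) and cardiomyocyte sum (-0.58) and the highest fibroblast sum (0.81).

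Levels between genes were compared per length, as FPKM (CPM divided by the gene length of the table in kilobases). Grk5 had the highest mean over the 6 libraries at 23.8 FPKM, followed by Grk2 at 22.1 and Adcy6 at 20.8. Grk5 exceeded Grk2 in only 3 of 6 libraries and Grk2 exceeded Adcy6 in 4, so over all libraries these neighbours did not differ beyond their spread. Adcy6 exceeded Adcy5, at 12.8 FPKM, in all 6. Adcy5 exceeded Adcy7 (12.1 FPKM) in 3 and Adcy7 exceeded Gnas (7.51 FPKM) in 4. The receptors were lowest, with Adra1b at 3.9, Adrb1 at 3.66 and Adra1a at 0.715 FPKM. Gnas was above Adra1b and Adrb1 above Adra1a in all 6 libraries, and Adra1b was above Adrb1 in 4. In NTG Grk5 was first, at 28.9 ± 7.41 FPKM (SD, n = 3), above Grk2 at 20.8 ± 0.831 and Adcy6 at 16.6 ± 2.93. In TG it was behind Adcy6 at 24.9 ± 2.39 and Grk2 at 23.5 ± 1.18, with 18.8 ± 2.74 FPKM. The Adcy7 mean was above that of Adcy5 in NTG (14.8 ± 2.95 against 11.9 ± 1.46) and below it in TG (9.43 ± 3.98 against 13.7 ± 0.354). The Adrb1 mean was above that of Adra1b in NTG (3.26 ± 0.473 against 2.45 ± 1.75) and below it in TG (4.05 ± 0.928 against 5.35 ± 1.56). The per-length ratio of Grk5 to Grk2 was 1.02, 1.62 and 1.52 in NTG and 0.686, 0.882 and 0.824 in TG. Length decided part of the order. The row length equalled the summed exons of all GENCODE transcripts for 7 members, but was 3165 against 7055 bases for Grk5 and 2491 against 3382 for Adrb1, so their FPKM would be lower with the summed exons. The median length of annotated transcripts, a choice made after seeing the data, put Grk2 first at 30.2 FPKM and Adcy6 second at 28.9. Gnas moved from place 6 to place 3 at 28.1, and Grk5 from place 1 to place 4 at 20.9.

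Ratios of 2 members within a library need no scaling between libraries. The ratio of Adcy5 to Adcy6 counts was 0.715, 0.809 and 0.764 in NTG and 0.589, 0.623 and 0.537 in TG. The ratio of Grk5 to Grk2 counts was 0.724, 1.14 and 1.07 in NTG and 0.485, 0.624 and 0.582 in TG. In both, every TG library was below every NTG library. The log2 differences were -0.39 and -0.78, each with p = 0.10 in an exact two-sided permutation test, the smallest value that 3 against 3 libraries allow, and 0.28 adjusted over the 7 ratios computed. Without NTG 1 they were -0.43 and -0.98. The other ratios overlapped between the groups, at log2 differences of -1.30 for Adcy7 to Adcy6, -0.75 for Adra1a to Adra1b and -1.01 for Adrb1 to Adra1b (exact permutation p = 0.20 each). Without NTG 1 these were -1.57, -0.97 and -1.5, and Adrb1 to Adra1b was -0.56 without NTG 2. Adrb1 to Gnas differed by -0.15 (exact p = 0.60), in a range from -0.32 without TG 3 to -0.05 without TG 2. Adrb1 to Grk2, which sets the receptor against its kinase, differed by 0.12 (exact p = 0.80), and this was 0.21 without NTG 1, -0.04 without NTG 3 and -0.08 without TG 3, so it gave no stable direction.

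**Figure D4:**
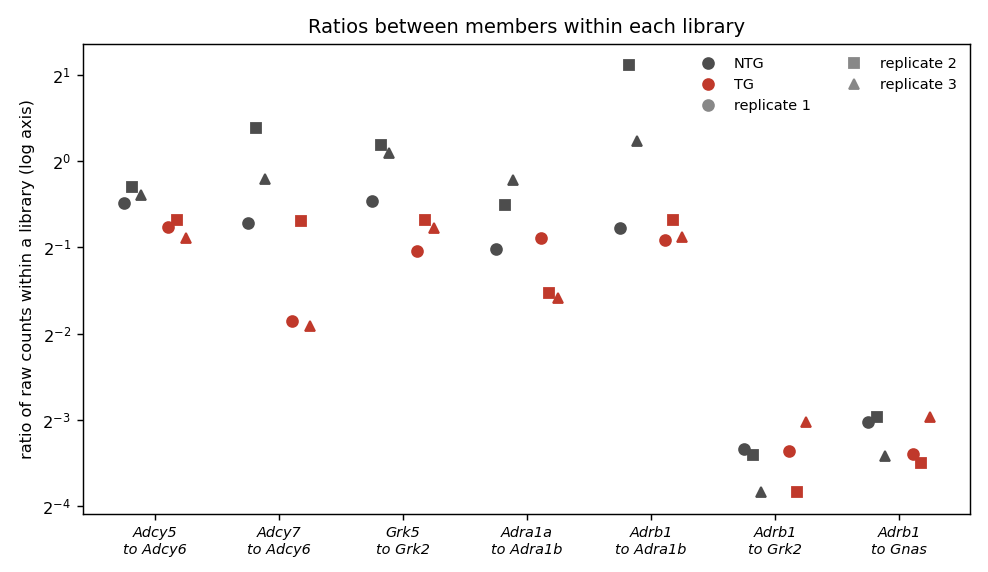
Ratio of the counts of 2 members in each library (y axis, log scale) for the 7 ratios, with NTG in grey, TG in red and symbols for replicates. For Adcy5 to Adcy6 and for Grk5 to Grk2 the 3 TG points lie below the 3 NTG points, and the other 5 ratios overlap.

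The wider pathway was described with 11 lists of 190 genes. Outside the members, 157 genes were tested and 82 were fitted higher in TG. edgeR called 0 of them, with 9 higher and 9 lower at an unadjusted p under 0.05, a smaller share than the 18.6% of all genes. DESeq2 called 0 higher and 3 lower, among them Pde1a and Calcrl, against 3.95% of all genes. Without NTG 1 edgeR called 7 higher and 4 lower, near the 5.52% of all genes. The median log2 fold change of these genes was 0.01, close to that of all genes. List medians moved when single libraries were left out, such as the adrenergic receptors from 0.37 to 0.24 without NTG 2 and 0.56 without TG 2, so the lists are not ranked by them.

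Among 31 G protein and RGS genes, 14 were fitted higher and 17 lower, with a median of -0.02. Gna11, a Gq-family subunit used by alpha-1 receptors, was at 0.34 ± 0.10 (edgeR adjusted p = 0.203) with no overlap between groups. Gna12 was at 0.25 ± 0.12 (adjusted p = 0.31) and Rgs10, which speeds the shut-off of inhibitory G proteins, at -0.61 ± 0.29 (adjusted p = 0.298). Of the 17 alpha-1 and Gq effectors, 5 were fitted higher and 12 lower, with a median of -0.11. Prkce, the epsilon isoform of protein kinase C, was at 0.43 ± 0.14 (adjusted p = 0.211) and was called higher without NTG 1 (0.57, adjusted p = 0.0417). Prkca and Prkcb were at -0.27 ± 0.12 (adjusted p = 0.276) and -0.62 ± 0.37 (adjusted p = 0.391).

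Phosphodiesterases, which break down cyclic nucleotides, were split, with 8 fitted higher and 9 lower of 17. Pde1a, a calcium-calmodulin-activated member, was at 15.3, 26 and 17.2 CPM in NTG and 6.78, 13 and 9.14 CPM in TG. The groups did not overlap, the log2 fold change was -1.01 ± 0.28 (edgeR adjusted p = 0.196), and DESeq2 called it lower (adjusted p = 0.0235). Pde9a was at -0.86 ± 0.27 (adjusted p = 0.204) with no overlap. Pde3a, a main cAMP-degrading enzyme of the ventricle, was at 0.40 ± 0.15 (adjusted p = 0.218) and was called higher without NTG 1 (0.55, adjusted p = 0.0449).

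PKA, its anchoring proteins, Epac and Popdc genes had 11 of 24 fitted higher and a median of -0.01. Akap1, which anchors PKA at mitochondria, was at 124, 73.9 and 91.2 CPM in NTG and 156, 123 and 140 CPM in TG. NTG 1 was just above TG 2 and the other NTG libraries were below TG. Its log2 fold change was 0.54 ± 0.19 (edgeR adjusted p = 0.217), and without NTG 1 it was called higher (0.76, adjusted p = 0.0299). Akap11 was at -0.23 ± 0.08 (adjusted p = 0.226) and Rapgef3, which encodes the cAMP sensor Epac1, at 0.29 ± 0.11 (adjusted p = 0.231).

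The list of PKA substrates of contraction and phosphatases had the most even direction in the fit, with 18 of 19 genes fitted higher and a median of 0.21 (0.13 without NTG 2), but only 2 genes had an unadjusted p under 0.05 and edgeR and DESeq2 called 0. Tnni3, cardiac troponin I, was at 0.61 ± 0.23 (edgeR adjusted p = 0.224) and Kcnq1, a potassium channel subunit, at 0.36 ± 0.12 (adjusted p = 0.211), followed by the phosphatase subunit Ppp2cb at 0.24 ± 0.11 (adjusted p = 0.297). Without NTG 1 edgeR called Pln (0.86, adjusted p = 0.0434) and Cacnb2 (0.62, adjusted p = 0.0413) higher, both chosen after their values were seen. With all libraries Pln was at 0.53 ± 0.26 (edgeR adjusted p = 0.314) and Cacnb2 at 0.31 ± 0.23 (adjusted p = 0.474). Tnni3, Ryr2 and Pln are also among the cardiomyocyte markers, whose sum was higher in TG than in NTG 2 and NTG 3.

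Of 16 genes of cAMP-responsive transcription, 8 were fitted higher and 8 lower, and 0 had an unadjusted p under 0.05. Ppargc1a, a coactivator of mitochondrial genes that CREB can induce, was at 94.4, 26.8 and 29.5 CPM in NTG and 150, 95.1 and 93.2 CPM in TG. NTG 1 was at the level of TG 2 and TG 3 and the other NTG libraries were far below. The log2 fold change was 1.17 ± 0.51 (edgeR adjusted p = 0.282), and 2.0 (adjusted p = 0.0204) without NTG 1. Creb1 was at 0.10 ± 0.09 (adjusted p = 0.545) and Crtc3 at -0.16 ± 0.15 (adjusted p = 0.562).

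Of 12 tested genes of catecholamine synthesis, uptake and breakdown, 7 were fitted higher and 5 lower, with a median of 0.05. Ddc rested on 9 to 42 counts in a library and was at 1.14 ± 0.48 (edgeR adjusted p = 0.257). Slc22a3, a catecholamine transporter chosen after its values were seen, was at 1.26 ± 0.69 (edgeR adjusted p = 0.357) with overlapping groups. It was called higher without NTG 1 (2.36, adjusted p = 0.0447). Among 9 other receptors that signal through cAMP, Calcrl, the receptor for calcitonin gene-related peptide and adrenomedullin, was at 44.6, 84.2 and 75.3 CPM in NTG and 33.5, 45.7 and 35.2 CPM in TG. Its log2 fold change was -0.84 ± 0.24 (adjusted p = 0.203, DESeq2 0.0292), and without NTG 1 edgeR called it lower (-1.07, adjusted p = 0.0162). Ptger4 was at -0.59 ± 0.37 (adjusted p = 0.408) and Ptgir at 0.19 ± 0.16 (adjusted p = 0.539).

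**Figure D5:**
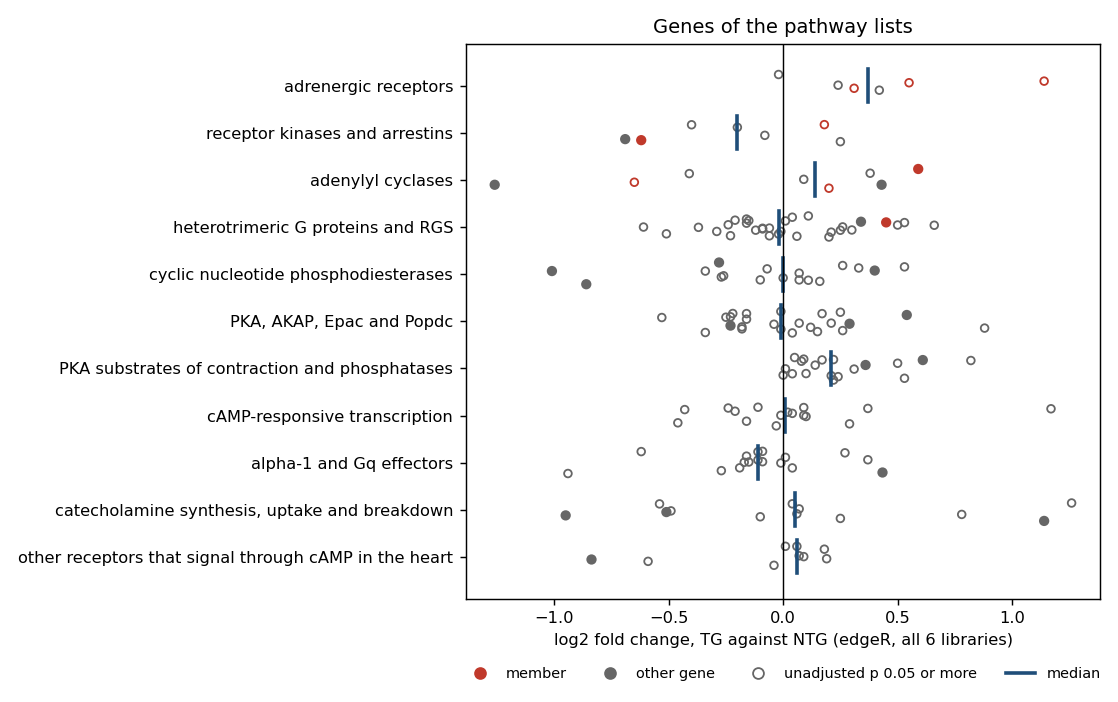
Log2 fold change (x axis, TG against NTG, edgeR, all 6 libraries) of each tested gene in the 11 pathway lists, members in red, filled where the unadjusted p was under 0.05, with a bar at the list median and vertical scatter only to separate points. With all libraries the medians were -0.20 for kinases and arrestins and 0.37 for adrenergic receptors (-0.06 and 0.24 without NTG 2), and 18 of 19 PKA substrates and phosphatases lie above 0.

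The genes most like each member across the 6 libraries were found among 14773 others by the root mean square difference of centred log2 CPM. Adcy5 had the smallest differences, to Oxnad1 at 0.013 and Fbxw5 at 0.019, and Grk2 had Msto1 at 0.021 and Prrc2a at 0.027. Adcy5 and Grk2 also varied least around their own means (0.15 and 0.104), so these differences do not rank the members by likeness. For Grk5 the nearest genes were Slc45a3 at 0.057 and Arrb1 at 0.065, the arrestin described above. Adcy6 had Selenbp1 at 0.049, and Gnas had Ccs at 0.04 and Mrps15 at 0.043. Adcy7 had Atp10a at 0.064 and Lhfpl2 at 0.082. Among receptors, Adrb1 had the antisense gene BC051226 at 0.069 and Clec3b at 0.072, Adra1a had Lepr at 0.127 and Gata2 at 0.146, and Adra1b had Gm28651 at 0.066 and Kcnj3 at 0.141. Within the members, 4 pairs differed by less than either gene varied around its own mean. These were Adcy6 and Gnas at 0.178 (own variation 0.345 and 0.244), Adrb1 and Gnas at 0.23 (0.274 and 0.244), Grk5 and Adcy7 at 0.237 (0.398 and 0.509), and Adra1a and Adra1b at 0.492 (0.601 and 0.892). These genes were picked for their likeness over 6 libraries whose cell type markers also differ, and no test was made.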

How the data were processed

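Raw counts per gene for 6 libraries were deposited by the authors, who cleaned the reads with in-house scripts, mapped them, assembled transcripts with StringTie v1.3.3b and counted reads with featureCounts v1.5.0-p3, with strand and multi-mapping settings not given in the sources used here. The submitters' processing notes name HISAT2, DESeq2 and the human build GRCh38, but the gene identifiers are mouse, and 98.3% of those shared with GENCODE M21 had its GRCm38 coordinates, so positions are given on GRCm38. CPM and per-length values were computed here from the counts and the gene lengths of the table.

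Libraries were scaled by TMM and filtered by filterByExpr, leaving 14774 genes. TG was compared with NTG by the edgeR 4.0.16 quasi-likelihood test (robust, no covariates, R 4.3.3), with Benjamini-Hochberg adjustment over all genes tested and thresholds of 0.05 and a log2 fold change of 0.5 in size. The common biological coefficient of variation was 18.7%. DESeq2 1.42.0, limma voom 3.58.1, other scalings and filters, a replicate block and each library left out were alternatives. The fits were tested on simulated data. Ratios were compared by exact permutation. Principal components used log2 CPM with a prior count of 2. Replicates are separate samples by their labels. The p-values judge the difference between groups against the variation between these samples, and do not measure that variation.

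The members, the lists and the tests were chosen with earlier results of these data known. Named were all members, their paralogs, the 3 list genes outside the members with the smallest unadjusted p in each list, genes overlapping a member, the 2 genes nearest each member, and Hint2. Some genes that this rule names are not reported here.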

Additional observations from a re-analysis of the deposited data

How the results depend on the processing

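Of 216 member fold changes under 24 alternatives each, 0 changed sign and 13 passed the thresholds that the values with all libraries did not. Adcy6 passed with no low-count filter (0.58, adjusted p = 0.0236), by DESeq2 (0.59), by the edgeR likelihood-ratio test (0.59, adjusted p = 0.0317) and with the replicate block and a gene length offset (0.64, adjusted p = 0.0475). Over the fits that left out one library each (edgeR and DESeq2), the log2 fold change ranged from 0.80 to 1.89 for Adra1b, -0.82 to -0.50 for Grk5, 0.45 to 0.70 for Adcy6, -1.05 to -0.47 for Adcy7 and 0.36 to 0.54 for Gnas. In these fits calls came without NTG 1 (Adra1b at 1.88, Grk5 and Adcy6 at 0.69 by edgeR, and the same genes by DESeq2) or, by DESeq2, without TG 2 (Adcy6 at 0.66, Adcy7 at -1.04 and Gnas at 0.54, adjusted p = 0.0054). DESeq2 did not call Adcy6 without any one of NTG 2, NTG 3, TG 1 or TG 3. By edgeR alone the Adra1b values began at 0.81. The Adrb1 range was 0.14 to 0.49, that of Adra1a 0.21 to 0.93 and that of Adcy5 0.10 to 0.27. Over all alternatives the adjusted p spanned 6.62e-07 to 0.595 for Adra1b, 3.08e-05 to 0.489 for Grk5, 0.00138 to 0.441 for Adcy6 and 0.0054 to 0.432 for Gnas.

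The number of genes called higher and lower was 116 and 116 with no filter, 228 and 355 by DESeq2, 206 and 339 by the likelihood-ratio test, and between 0 and 896 higher and 0 and 877 lower with one library left out. Without NTG 1, edgeR called 404 and 432 and DESeq2 896 and 877. DESeq2 called 47 and 76 without NTG 2, 40 and 129 without NTG 3, 103 and 76 without TG 1, 292 and 486 without TG 2, and 29 and 67 without TG 3. Members called higher numbered 1 with no filter, by DESeq2 and by the likelihood-ratio test, and 0 to 2 with one library left out, and those called lower 0 to 1. Other list genes called lower numbered 3 by DESeq2 and by the likelihood-ratio test. With one library left out, 0 to 10 were called higher and 0 to 8 lower (edgeR without NTG 1 called 7 and 4, and DESeq2 without TG 2 called 1 and 6). The Adrb1 to Grk2 ratio turned to -0.04 without NTG 3 and -0.08 without TG 3, in a range up to 0.33. With library size alone as scaling, the median of all genes was -0.0926.

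The deviations of same-numbered libraries correlated at 0.08, 0.17 and -0.25, and those of differently numbered libraries at -0.25 to 0.17. With so few libraries these values cannot decide whether the shared replicate numbers pair the mice. With the replicate block 84 genes were called higher and 147 lower, and with the gene length offset added 109 and 135, members called higher then numbered 1, and 1 other list gene was called lower in each. With the block Adcy6 was at 0.60 (adjusted p = 0.0533), Grk5 at -0.60 (0.0599), Gnas at 0.45 (0.0662) and Adcy7 at -0.70 (0.0754). The cause of these changes was not tested. The receptors rested on 54 to 365 counts in a library, which limits their precision.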
